A study of Homo sapiens with 4 samples.

Results

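PML nuclear bodies are dot-like compartments of the cell nucleus, and 5 genes that encode their components were followed here: PML, SP100, SP110, DAXX and ATRX. They were taken by symbol from the 2 deposited expression tables, which held 13092 genes in all. All 5 were listed in both tables and had a mean of at least 1 RPKM (a read number divided by transcript length and by the reads assigned in that library), as did 10331 genes in total. RNA came from RKO, an established human colon carcinoma line of poorly differentiated cells. One library was from RKO cells with the genotype HADH-S overexpression, and the other from control RKO cells with the genotype WT. The series title concerns a nuclear isoform of hydroxyacyl-CoA dehydrogenase (HADH), an enzyme of fatty acid oxidation, and the labels do not spell out the name HADH-S. The way overexpression was made, the use of an empty vector in the control and the clonality of the lines are details not given in the sources used here.

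The PML protein assembles the shell of these bodies, and its modification by the small ubiquitin-like modifier SUMO lets it hold partner proteins that bind SUMO. SP100 is a permanent partner of PML in the shell, and SP110 is a relative of SP100 that is abundant in leukocytes. DAXX is a SUMO-binding protein and a chaperone of the histone variant H3.3, which it deposits on chromatin together with ATRX, an ATP-dependent chromatin remodeller. PML, SP100 and SP110 are textbook interferon-stimulated genes, and the bodies take part in antiviral defence, DNA repair and the silencing of repeats.

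The 5 genes did not move as a unit. SP110, PML and SP100 were higher with HADH-S by RPKM ratios of 1.67, 1.46 and 1.35, DAXX was level at a ratio of 1.00, and ATRX was lower at a ratio of 0.745. Each condition had 1 library, so no difference has a replicate check and no test between the conditions exists. "Higher" and "lower" describe these 2 libraries. Intervals given here are exact 95% intervals for counting error alone, from 6963608 reads assigned to genes in HADH-S cells and 6773421 in control cells, and they treat each read as a separate molecule, although reads can be copies of one. Since they are 2 bulk samples, more RNA per cell and more cells that express a gene cannot be told apart.

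The labels were checked on HADH, with 54.4 RPKM under the overexpression label against 26.5 RPKM under the WT label. Of the markers of other cell types, 2 of 10 for leukocytes, 2 of 6 for fibroblasts and 1 of 5 for endothelium were listed, and 0 had a mean of at least 1 RPKM. PTPRC, the pan-leukocyte marker, was in neither table, and CD79A had 4 reads with HADH-S against 1. Of 10 epithelial and colon markers, KRT18, KRT8, EPCAM and CDX2 were at a mean of at least 1 RPKM. The other 6 (CDH1, VIL1, CDX1, KRT20, CDH17 and LGALS4) were listed in neither table, among them most of the defining markers of differentiated colon epithelium. Mitochondrially encoded genes took 5.41% of the HADH-S reads against 5.32% of the control reads.

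Promoter sequence was at hand for the speckled protein genes, a family of 4 neighbours on chromosome 2 that includes SP100 and SP110. In the RefSeq annotation of GRCh38.p14, SP110 spans 230165186 to 230225636, SP140 230186151 to 230316571, SP140L 230327193 to 230403732 and SP100 230416201 to 230545606. The 4 genes lie within 380421 bases. SP110 is on the minus strand and the other 3 are on the plus strand. Windows of 300 bases, from 250 before to 50 after each annotated start, were matched by symbol for 2 of the 5 members, SP100 and SP110 with 2 starts each, and for SP140 and SP140L. PML, DAXX and ATRX had no entry.

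The windows below are shown because SP100 and SP110 were both higher with HADH-S and because one short stretch recurs in them. The windows of SP140 and of the second SP100 start are not printed, and their matches are given after the sequences. Capitals mark every match of AANNGAAA, a core site bound by interferon regulatory factors (IRF), on either strand (TTTCNNTT on the other strand).
SP110 start 1, chr2:230225587-230225886, minus strand: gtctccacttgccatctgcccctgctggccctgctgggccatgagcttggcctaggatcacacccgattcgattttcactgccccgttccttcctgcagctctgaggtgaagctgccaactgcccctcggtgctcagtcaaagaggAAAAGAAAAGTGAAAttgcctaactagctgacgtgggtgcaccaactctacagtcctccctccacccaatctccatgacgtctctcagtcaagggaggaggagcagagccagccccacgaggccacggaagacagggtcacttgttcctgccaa
SP110 start 2, chr2:230219935-230220234, minus strand: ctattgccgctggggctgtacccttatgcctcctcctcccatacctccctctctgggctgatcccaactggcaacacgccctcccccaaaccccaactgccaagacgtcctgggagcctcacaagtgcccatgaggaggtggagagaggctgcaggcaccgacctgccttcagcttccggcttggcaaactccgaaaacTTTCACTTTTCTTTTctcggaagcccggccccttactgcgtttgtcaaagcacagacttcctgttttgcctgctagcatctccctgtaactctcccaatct
SP140L, chr2:230326943-230327242, plus strand: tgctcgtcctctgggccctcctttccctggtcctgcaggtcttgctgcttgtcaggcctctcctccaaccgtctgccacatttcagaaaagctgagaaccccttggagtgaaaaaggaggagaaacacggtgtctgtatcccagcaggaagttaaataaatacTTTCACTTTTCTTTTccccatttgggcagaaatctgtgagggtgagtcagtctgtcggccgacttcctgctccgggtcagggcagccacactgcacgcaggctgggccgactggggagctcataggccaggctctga
SP100 start 1, chr2:230415951-230416250, plus strand: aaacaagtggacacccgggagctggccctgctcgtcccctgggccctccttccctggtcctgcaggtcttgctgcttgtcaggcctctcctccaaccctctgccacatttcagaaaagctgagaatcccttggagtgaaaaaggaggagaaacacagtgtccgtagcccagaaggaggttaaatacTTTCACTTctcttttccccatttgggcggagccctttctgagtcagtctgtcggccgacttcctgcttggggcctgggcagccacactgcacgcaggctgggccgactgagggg

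The IRF site was common, with a match in 22.8% of 35116 RefSeq windows of the same length. Both SP110 windows, the SP140 window and the SP140L window held 2 matches that overlap by 1 base, the first SP100 window held 1, and the second SP100 window held none. The overlapping matches form part of the 16-base run GAAAAGAAAAGTGAAA, which was the longest run shared by the 2 SP110 windows on either strand and was picked out after the sequences were seen. That run occurred in 4 of the 35116 windows, namely both of SP110, the one of SP140 and the one of SP140L. With the annotated start counted as 0, it lay from -105 to -90 at the first SP110 start, from -51 to -36 at the second, from -87 to -72 at SP140L and from -10 to 5 at SP140. The first SP110 start and the SP140 start lie 100 bases apart on opposite strands, their windows overlap by 199 bases, and the run in both is the same stretch of the genome.

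The first SP100 window held the run with 1 substitution, A8G, counted from the 5′ end of the run. At most 1 mismatch was found in 13 windows of 12 genes. Aligned end to end, this SP100 window and the SP140L window were identical in 76.8% of 328 columns. The value was 50.5% of 327 columns for this SP100 window and the first SP110 window. Every other pair of the 6 windows lay between 44.6% and 53.0%, with the first and second SP100 windows at 45.5%. The longer interferon-stimulated response element core, GAAANNGAAA, which contains the IRF site, was in none of the 6 windows and in 3.57% of all windows. The gamma-activated site GAS, TTCNNNGAA, which reads the same on both strands, was in the second SP110 window, from -38 to -30, and in 7.66% of all windows. It overlaps the adjoining IRF site. A match describes letters only, and which start gave the RNA measured here was not determined.

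**Figure D1:**
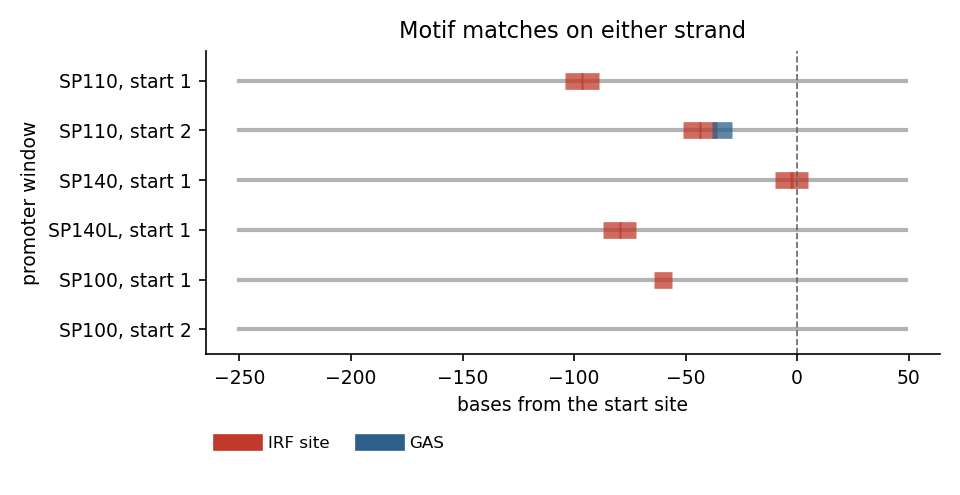
Matches of the IRF site (red) and of GAS (blue) on either strand in the 6 RefSeq windows of the speckled protein genes, plotted by distance in bases from the annotated start (dashed line), upstream to the left. Pairs of overlapping IRF sites appear in both SP110 windows, SP140 and SP140L, and a single one in the first SP100 window.

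PML, the scaffold of the bodies, was the lowest of the 5 genes in both libraries. The gene (ENSG00000140464) lies on chromosome 15 between 73994716 and 74047827 of GRCh38.p14. HADH-S cells had 3.84 RPKM of PML (counting interval 3.25 to 4.51) from 149 reads, against 2.63 RPKM in control cells (2.13 to 3.20) from 99 reads. The level was higher with HADH-S, and the 2 intervals did not overlap. How many of all genes had level intervals apart was not computed, so such gaps have no background, here or for the members below. The ratio was 1.46, with an interval of 1.13 to 1.91. On the log2 scale with 1 RPKM added to each level, which understates the differences of low genes, the value was 0.42, a 1.34-fold difference. Among the 500 genes with the most similar read numbers, 29 had a larger log2 value. Where read numbers tie, such a set can include the member itself. The tables give one transcript for the gene, ENST00000268058 of 5565 nt, so the many splice forms of PML, which differ at their 3′ ends and in the partners they bind, were not separated.

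SP100, the constitutive partner of PML, was the second most abundant of the 5. HADH-S cells had 21.1 RPKM of SP100 (ENSG00000067066, interval 19.6 to 22.6) from 795 reads, against 15.7 RPKM in control cells (14.4 to 17.0) from 574 reads. These intervals were apart too, and with more reads than PML the ratio of 1.35 was held more tightly, from 1.21 to 1.502. The log2 value was 0.41, and 6 of the 500 genes of similar read number had a larger one. Its ratio was not separable from that of PML by counting error, but fewer genes of similar depth lay beyond it.

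SP110, the relative of SP100, differed most. For SP110 (ENSG00000135899), 129 reads gave 7.64 RPKM in HADH-S cells (interval 6.38 to 9.07) and 75 reads gave 4.56 RPKM in control cells (3.59 to 5.72). The intervals did not overlap, and the ratio was 1.67 with an interval of 1.249 to 2.25. Its log2 value was 0.63, a 1.55-fold difference, exceeded by 7 of the 500 genes of similar read number. SP110 shares 39486 bases of the genome with SP140 on the other strand, and without a known strand setting their reads cannot be told apart. SP140, a leukocyte gene, had 2 reads in HADH-S cells against 5 in control cells (0.0885 against 0.228 RPKM, ratio 0.389, interval 0.0370 to 2.38). Both of its levels were far below those listed for SP110.

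The fourth gene of the family, SP140L, was expressed at a level near that of SP110. Its level was 9.70 RPKM from 180 reads in HADH-S cells, against 7.98 RPKM from 144 reads in control cells. Its ratio of 1.22 had an interval of 0.971 to 1.52, which includes 1, so a difference was not detectable at this depth. The speckled protein genes are close copies in part, and the way that reads fitting several of them were divided is not known, so each value is uncertain to that extent.

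**Figure D2:**
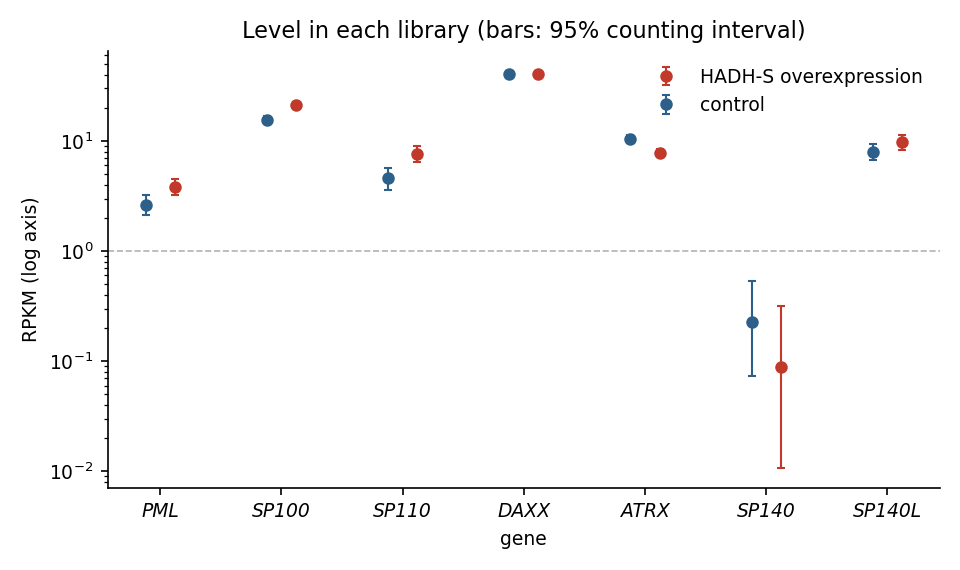
RPKM (log axis) of the 5 genes and the paralogs SP140 and SP140L in the HADH-S library (red) and the control library (blue), with 95% counting intervals and a dashed line at 1 RPKM. PML, SP100 and SP110 sit higher with HADH-S, DAXX is level near 40.4 RPKM, ATRX sits lower, and SP140 is near the limit of detection.

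The histone chaperone pair went a different way. DAXX (ENSG00000204209, on chromosome 6 between 33318558 and 33322959) had 40.4 RPKM in both libraries, from 734 HADH-S reads and 714 control reads. It was the most abundant of the 5, and its level with HADH-S (37.6 to 43.5) covered the same range as in the control (37.5 to 43.5). The ratio was 1.00 with an interval of 0.901 to 1.11, and counting error leaves room for a difference within those bounds. Of the 500 genes of similar read number, which included DAXX itself, 245 had a larger log2 value and 254 a smaller one.

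ATRX, the partner of DAXX in H3.3 deposition, was the one member that was lower with HADH-S. For ATRX (ENSG00000085224, on chromosome X between 77504880 and 77786216), 608 reads gave 7.82 RPKM in HADH-S cells (interval 7.21 to 8.47) and 794 reads gave 10.5 RPKM in control cells (9.78 to 11.3). The 2 intervals did not overlap. The ratio was 0.745 with an interval of 0.669 to 0.829, the log2 value was -0.38, and 2 of the 500 genes of similar read number had a smaller one. At 11167 nt its transcript is the longest of the 5, and genes with long transcripts were slightly lower with HADH-S as a class. The 714 genes with transcripts of at least 8000 nt had a median log2 value of -0.07, and 6 of them lay below ATRX. With a smooth trend on transcript length taken out, an alternative chosen after the data had been seen, the value of ATRX was -0.31. The part of RNA quality or length in the rest of the difference was not tested.

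The members were also set against each other. Their RPKM ratios were compared in 10 pairs, which reuse the same 5 genes, each by the ratio of the 2 ratios with an exact conditional 95% interval. In 7 pairs the interval left out 1, and the 3 pairs where it did not were those among PML, SP100 and SP110. The share of such pairs among all genes was not computed, so the count of 7 has no background to be set against. Single-gene intervals, a different measure, lay above 1 for 13.8% of all genes and below it for 11.6%. The pairs restate the ratios given above and are no further evidence. SP110 against ATRX differed most: SP110 was at 0.435 times the level of ATRX in the control and at 0.977 times with HADH-S, a ratio of ratios of 2.25 (1.64 to 3.09). DAXX stood at 3.85 times the level of ATRX in the control and at 5.17 times with HADH-S, a ratio of ratios of 1.34 (1.16 to 1.56). PML stood at 0.0649 times the level of DAXX in the control and at 0.0951 times with HADH-S, a ratio of ratios of 1.46 (1.10 to 1.95). Between SP110 and SP100 the ratio of ratios had an interval of 0.585 to 1.10 for SP100 over SP110, so a difference between these relatives was not detectable at this depth.

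By level, the order in the control was DAXX, SP100, ATRX, SP110 and PML, and no neighbours in that order had overlapping counting intervals. With HADH-S the order was the same, but ATRX and SP110 had overlapping intervals and could not be ranked. DAXX made up 54.8% of the summed RPKM of the 5 genes in the control and 50.04% with HADH-S. All of these are levels per length of 1 annotated transcript, not numbers of protein molecules.

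**Figure D3:**
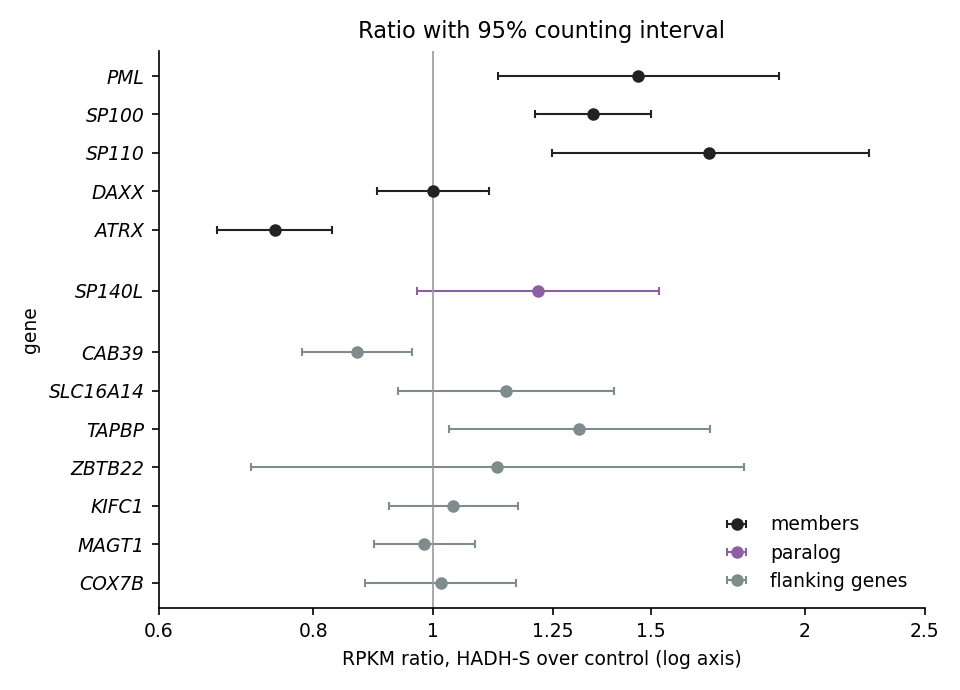
RPKM ratio of HADH-S over control (log axis) with 95% counting intervals for the 5 genes (black), the paralog SP140L (purple) and the flanking genes at a mean of at least 1 RPKM (grey), with a line at 1. The intervals of PML, SP100 and SP110 lie above 1, that of ATRX lies below 1, and that of DAXX spans it.

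The members' differences were modest in fold. By rank of the log2 value among the 10331 genes, SP110 stood at percentile 98.8, PML at 95.8, SP100 at 95.5, DAXX at 47.7 and ATRX at 1.98. By a fold of at least 1.5 on the log2(RPKM + 1) scale, 1 of the 5 was higher (SP110), as were 1.47% of the 10331 genes, and 0 were lower, against 0.436% of all genes. No member reached a fold of 2 in either direction, which 0.300% of all genes did upward and 0.0484% downward. A counting interval above 1 was found for 3 of the 5, against 13.8% of all genes, and one below 1 for 1 of the 5, against 11.6%. Counting intervals leave out the spread between cultures and between library preparations. The median log2 value was 0.41 over the 5 members, which is the value of SP100, and 0.01 over all genes, 95% of which lay between -0.36 and 0.49. SP110 and ATRX lay outside that range, and PML, SP100 and DAXX lay inside it. With 5 RPKM added in place of 1, SP110 no longer reached a fold of 1.5 (log2 value 0.40) and the value of PML was 0.21, since a larger added constant shrinks the values of low genes.

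**Figure D4:**
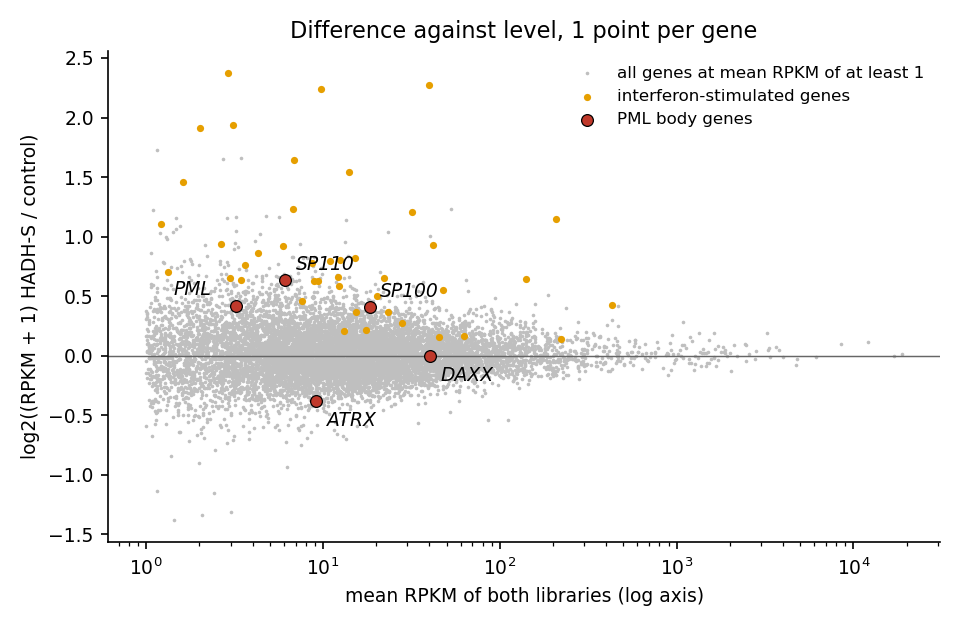
Log2((RPKM + 1) with HADH-S over control) against the mean RPKM of both libraries (log axis) for 10331 genes (grey), 42 interferon-stimulated genes (orange) and the 5 PML body genes (red, named). SP110, PML and SP100 lie on the upper side of the cloud, DAXX at its centre and ATRX on its lower edge.

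Other interferon-stimulated genes were read beside the members, since PML, SP100 and SP110 belong to that class. Of 50 such genes without the members, 42 had a mean of at least 1 RPKM. Every one of the 42 had a positive log2 value (52.2% of all genes), 30 were at least 1.5-fold higher (1.47%) and 40 had a counting interval above 1 (13.8%). Their median log2 value was 0.73 against 0.01 for all genes. Of the 7 listed at lower levels, 1 had a negative value (UBA7, 6 reads against 7), and EPSTI1 was not listed. IFIT1, which binds foreign RNA, was at 16.7 against 2.75 RPKM, and ISG15, a ubiquitin-like modifier, at 287 against 128 RPKM. By ratio, SP110 stood near the middle of this class, since 24 of the 42 had a larger one. Of the 42, 31 had a larger ratio than PML and 33 a larger one than SP100. By log2 value, 27 of the 42 were larger than SP110, 34 larger than PML and 34 larger than SP100. All 42 had a larger ratio than DAXX and ATRX. That this class was higher was known when the 5 genes were chosen, and it is no independent support for them.

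Genes of proteins that the bodies recruit had values on both sides of 0. Of 16 client genes, 15 had a mean of at least 1 RPKM, 7 of them positive and 8 negative, with a median log2 value of -0.02. A counting interval above 1 was found for 1, against 13.8% of all genes, and below 1 for 0, against 11.6%. That gene was ISG20, an interferon-stimulated exonuclease, at 14.97 RPKM with HADH-S and 10.8 in the control (ratio 1.38, interval 1.08 to 1.77). RMI2, a subunit of the BLM helicase complex, had the largest log2 value, 0.53, but its 46 reads against 28 gave an interval of 0.978 to 2.65 that includes 1.

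Genes that act on the turnover of PML also had values on both sides of 0, with 6 positive and 5 negative. The 11 genes had a median log2 value of 0.01, with 1 counting interval above 1 (13.8% of all genes) and 2 below (11.6%). The ubiquitin ligase SIAH1, which can target PML for degradation, was at 7.55 RPKM with HADH-S and 9.96 in the control (ratio 0.758, interval 0.596 to 0.962). USP11, a deubiquitinase that stabilises PML, was at 9.64 against 7.30 RPKM (ratio 1.32, interval 1.08 to 1.62). None of the 11 reached a fold of 1.5, which 1.47% of all genes did upward and 0.436% downward.

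The SUMO machinery, on which assembly of the bodies depends, was read in 2 lists. The 13 genes of SUMO conjugation had a median log2 value of -0.03, with 0 counting intervals above 1 (13.8% of all genes) and 2 below (11.6%). These were ZNF451, a SUMO ligase, at 10.9 against 14.1 RPKM (ratio 0.775, interval 0.676 to 0.887), and RANBP2, a SUMO ligase of the nuclear pore, chosen after its values were seen, at 34.4 against 40.5 RPKM (ratio 0.850, interval 0.807 to 0.894). RANBP2 has a long transcript of 11708 nt, and its log2 value of -0.23 was -0.16 with the length trend taken out. PIAS3, another SUMO ligase, had the second largest difference, at 5.20 against 3.92 RPKM, with an interval of 0.979 to 1.80. For the 11 genes of SUMO removal and SUMO-targeted ubiquitin ligases the median was -0.10, with 3 positive and 8 negative values. Counting intervals lay above 1 for 2 of them, against 13.8% of all genes, and below 1 for 4, against 11.6%. No gene of either list reached a fold of 1.5, which 1.47% of all genes did upward and 0.436% downward. DESI1, a SUMO protease, had 22.3 against 17.5 RPKM (ratio 1.28, interval 1.13 to 1.45) and SENP1 had 15.9 against 18.6 RPKM (ratio 0.855, interval 0.758 to 0.964).

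Genes of histone H3.3 and its chaperones, among them those of the separate HIRA complex, and genes of methylation of histone H3 at lysine 9 were read in 2 lists. Of all genes, at any depth, 11.6% had a counting interval below 1 and 13.8% one above 1. The 10 genes of histone H3.3 and its chaperones had a median log2 value of -0.08, with 0 counting intervals above 1 and 4 below. Among the 4 were H3-3A (2768 reads with HADH-S against 2903), H3-3B (5621 against 5767) and DEK (2501 against 2774). With so many reads a small difference leaves out 1, and the share among genes of such depth was not computed. UBN2, of the HIRA chaperone complex, was at 4.09 RPKM in HADH-S cells and 5.07 in control cells (ratio 0.805, interval 0.706 to 0.918). Its transcript is long, at 14692 nt, and its log2 value of -0.26 was -0.17 with the length trend taken out. The H3.3-binding protein gene DEK was at 116 against 132 RPKM (ratio 0.877, interval 0.830 to 0.926). The 12 partners in methylation of histone H3 at lysine 9 had a median of -0.13, with 1 counting interval above 1 and 4 below. SETDB1, the methyltransferase, had 3.92 against 5.36 RPKM (ratio 0.731, interval 0.573 to 0.931), close to the ratio of ATRX, and TASOR, a subunit of the HUSH silencing complex, at 24.2 against 28.9 RPKM (ratio 0.836, interval 0.763 to 0.916). No gene of these 2 lists reached a fold of 1.5, which 1.47% of all genes did upward and 0.436% downward. The ratio of ATRX lay below those of the 10 H3.3 genes. H3-3A and H3-3B encode the same protein and have many pseudogenes, so their reads are uncertain.

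**Figure D5:**
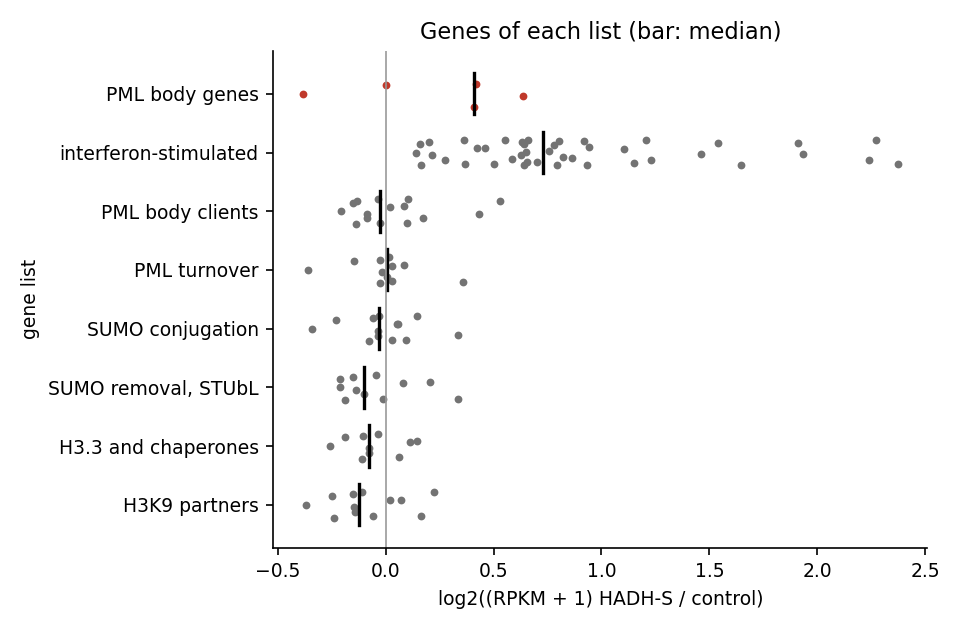
Log2((RPKM + 1) with HADH-S over control) of each gene in 8 lists, limited to genes at a mean of at least 1 RPKM, with a bar at each median and vertical scatter for legibility only. STUbL stands for SUMO-targeted ubiquitin ligases. The interferon-stimulated genes lie to the right of 0, the PML body genes spread from ATRX at -0.38 to SP110 at 0.63, and the medians of the other lists lie between -0.13 and 0.01.

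Genes next to the members on the chromosome were read for comparison, taking the 2 protein-coding genes on either side by start position. Of 18 such genes that are not members, 8 had a mean of at least 1 RPKM. Of these, 0 reached a fold of 1.5, which 1.47% of all genes did upward and 0.436% downward. TAPBP, which loads peptides onto MHC class I and lies next but one to DAXX, was at 12.3 against 9.38 RPKM (ratio 1.31, interval 1.03 to 1.68), while DAXX itself was level. CAB39, next but one to SP100, was lower at 26.7 against 30.8 RPKM (ratio 0.868, interval 0.783 to 0.961). MAGT1 and COX7B, beyond ATRX on the X chromosome, had ratios of 0.984 (0.896 to 1.08) and 1.01 (0.882 to 1.17). The intervals of MAGT1 and of ATRX did not overlap. The closest neighbours of PML were below 1 RPKM or not listed, with STOML1 at 0.915 against 0.799 RPKM.

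Likeness of pattern could be judged over 2 libraries only, as the distance between genes in the plane of log2(RPKM + 1) in both. By this measure the protein-coding genes nearest to PML were CRYBB2 (distance 0.01) and HOXC5 (0.02), and RRBP1 (0.04) was nearest to SP100. Nearest to SP110 were CCDC107 (0.03) and POLL (0.04), to DAXX EIF5B and SNX6 (0.01 each), and to ATRX H2AC8 (0.01) and PLEKHA2 (0.02). With a single pair of libraries such closeness reflects level and ratio alone.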

How the data were processed

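RNA was measured in 1 library of RKO cells overexpressing HADH-S and 1 of control cells. The immunoprecipitation and input libraries were not analysed here. The authors deposited 1 RPKM value per gene and library, per the file headers, with a transcript and its length in each row name. The build GRCh38 and the tools MACS2 1.4.2, SAMtools 1.9, fastp 0.23.2 and ChIPseeker are named for all samples alike, per the submitters' processing notes. The RNA aligner, the counter, its strand setting and its annotation were not given in the sources used here.

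RPKM times transcript length was a whole multiple of 1 step per library for 100% of values within 0.01 reads, which gave the reads per gene. Their sums were 6963608 (12612 genes, median 206 reads) and 6773421 (12501 genes, median 200). A gene listed in 1 table only was given 0 reads in the other, and 3 reads correspond to about 0.137 and 0.141 RPKM at the median transcript length. Values are the log2 of (RPKM + 1) in HADH-S cells over (RPKM + 1) in control cells, for 10331 genes at a mean RPKM of at least 1, with rules of size of 1.5-fold and 2-fold. Ratios of RPKM carry Clopper-Pearson intervals and levels exact Poisson intervals, both at 95%. Steps were tested on reads simulated with counting error alone and with planted changes larger than those of the members. That test does not cover spread between cultures or differences of the size reported here.

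The members and gene lists were chosen with earlier results of these data known. Named were the members, SP140 and SP140L, flanking genes, the 2 genes of each list with the largest absolute log2 value, the 2 genes nearest to each member in level, HADH and 2 interferon-stimulated genes; some genes this rule names are not reported here. Any other gene was chosen with its values known, apart from marker genes, genes left out of a count and genes matched by promoter sequence. Of 13092 genes, 13073 identifiers were in the reference name table. Positions and promoter windows are from RefSeq, GRCh38.p14. Windows were aligned with Biopython 1.88, and other steps used Python 3.11.15, pandas 2.3.3, SciPy 1.17.1 and statsmodels 0.14.6. Alternatives were pseudocounts of 0.1, 0.5 and 5, 3 rescalings, 2 filters and removal of a length trend.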

Additional observations from a re-analysis of the deposited data

How the results depend on the processing

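No paired analysis was possible because each condition had 1 library, and for the same reason no replicate could be left out. Under 7 alternatives each, the log2 values of PML (0.21 to 0.53), SP100 (0.34 to 0.43), SP110 (0.40 to 0.73) and ATRX (-0.42 to -0.27) kept their direction and stayed within the counting intervals of the reported values, as did DAXX (-0.04 to 0.00). The number of members higher by 1.5-fold was 0 in place of 1 with a pseudocount of 5. Among all genes, those higher by 1.5-fold numbered 152, and 301 with a pseudocount of 0.1, 28 with 5 and 66 at a mean RPKM of at least 5. Those lower by 1.5-fold numbered 45, and 123, 77 and 2 with pseudocounts of 0.1, 0.5 and 5, 85 without a filter and 17 at a mean RPKM of at least 5. Those higher by 2-fold numbered 31, and 69 and 8 with pseudocounts of 0.1 and 5 and 12 at a mean RPKM of at least 5. Those lower by 2-fold numbered 5, and 15, 8 and 0 with pseudocounts of 0.1, 0.5 and 5, 9 without a filter and 0 at a mean RPKM of at least 5. Larger pseudocounts shrink low genes by construction, and the stricter filter tests fewer genes. The median of the interferon-stimulated genes was 0.49 with a pseudocount of 5. Rescaling left the median of all genes between -0.01 and 0.00. Depth limits PML and SP110 most, with 99 and 75 reads in the control.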

Other observations

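Outside the speckled protein family, 8 genes had a RefSeq promoter window that held GAAAAGAAAAGTGAAA with 1 mismatch, and 3 of these were listed in the expression tables. They were chosen by their sequence, not by their values. RELA, a subunit of the transcription factor NF-kB, had 28.4 RPKM in HADH-S cells against 24.8 RPKM in control cells (ratio 1.15, interval 1.01 to 1.31). BTN3A3, a butyrophilin gene, was at 3.09 against 2.88 RPKM (ratio 1.07, interval 0.740 to 1.56). C2CD2 was at 132 against 143 RPKM (ratio 0.926, interval 0.894 to 0.960).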
